A study of Homo sapiens with 2 samples.

Results

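The genes described here encode core splicing factors and heterogeneous nuclear ribonucleoproteins (hnRNPs). They were chosen by gene symbol: every array row whose symbol in the platform's annotation begins with SRSF and a digit, HNRNP, SF3A or SF3B and a digit, SNRP, U2AF, or PRPF and a digit. That gave 66 genes on 83 rows, out of 16583 named genes on 18188 named rows and 45033 rows in all. The samples were 2 cultures of A375, an established human melanoma cell line, grown in serum-supplemented medium. One culture (A375-vector) had received an empty lentivirus, the other (A375-shBMI-1) a lentivirus whose short hairpin RNA targets BMI1, a subunit of Polycomb repressive complex 1. Each RNA was read on 1 single-colour array, so no value has a replicate error and no test between the cultures was possible.

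Splicing removes introns through the spliceosome, a machine assembled anew on each intron from small nuclear ribonucleoproteins (snRNPs). The U1 snRNP recognises the 5′ splice site, the U2AF dimer the 3′ splice site, and the U2 snRNP with its SF3A and SF3B subunits the branch point. A tri-snRNP carrying several PRPF proteins then joins to form the catalytic centre. A ring of Sm proteins, encoded by SNRP genes, holds most spliceosomal RNAs. SR proteins and hnRNPs bind the transcript itself, and often act in opposite directions on the choice of exons. Most of this machinery is expressed in nearly every dividing cell.

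The promoters of 4 genes are shown because these genes had the 2 highest and the 2 lowest ratios between the cultures. Only genes over the brightness limit given below were ranked. Each sequence runs 5′ to 3′ on the gene's own strand and comes from RefSeq on GRCh38.p14. It spans 250 bases before to 50 bases after the first listed start. The PRPF40B gene begins at 49622646 in RefSeq, before its window, so that window belongs to a later start. Which start the PRPF40B array rows follow was not tested. Capitals mark 6 short motifs, none overlapping another here, that were searched on both strands. These were the E-box with the letters CACGTG, the box named CCAAT for its letters, and the GC box with the letters GGGCGG. The others were the TATA box, searched as TATAAA, the ETS core, searched as CCGGAAG, and the CRE half-site, searched as TGACGT.
HNRNPA0, chr5:137754314-137754613, minus strand: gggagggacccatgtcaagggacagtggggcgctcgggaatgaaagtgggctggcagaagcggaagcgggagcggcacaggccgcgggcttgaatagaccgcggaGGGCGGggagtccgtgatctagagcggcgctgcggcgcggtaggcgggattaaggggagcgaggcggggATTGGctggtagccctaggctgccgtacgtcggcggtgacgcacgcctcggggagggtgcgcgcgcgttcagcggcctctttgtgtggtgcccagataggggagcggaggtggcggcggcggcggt
U2AF1L4, chr19:35745369-35745668, minus strand: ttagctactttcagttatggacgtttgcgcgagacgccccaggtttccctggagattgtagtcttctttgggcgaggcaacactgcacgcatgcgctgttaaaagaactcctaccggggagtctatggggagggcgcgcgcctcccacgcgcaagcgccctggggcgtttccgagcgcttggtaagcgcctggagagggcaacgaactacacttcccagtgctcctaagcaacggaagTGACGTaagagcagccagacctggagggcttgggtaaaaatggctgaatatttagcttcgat
PRPF40B, chr12:49623311-49623610, plus strand: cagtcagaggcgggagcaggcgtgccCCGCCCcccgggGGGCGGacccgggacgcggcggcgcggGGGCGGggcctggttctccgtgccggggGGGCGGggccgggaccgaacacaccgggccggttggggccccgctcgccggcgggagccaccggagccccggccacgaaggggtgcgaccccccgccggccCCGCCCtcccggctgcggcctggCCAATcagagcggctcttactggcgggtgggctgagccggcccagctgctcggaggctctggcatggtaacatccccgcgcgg
HNRNPH2, chrX:101407972-101408271, plus strand: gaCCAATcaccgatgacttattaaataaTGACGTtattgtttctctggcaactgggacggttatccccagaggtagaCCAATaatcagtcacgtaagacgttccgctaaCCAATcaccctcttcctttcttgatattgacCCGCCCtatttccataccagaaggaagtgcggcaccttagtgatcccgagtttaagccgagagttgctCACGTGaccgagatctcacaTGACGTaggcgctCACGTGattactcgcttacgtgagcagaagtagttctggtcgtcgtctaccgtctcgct

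The PRPF40B window held 39 CpG dinucleotides and 5 GC boxes, and the HNRNPA0 window 36 CpG dinucleotides and 1 GC box. The HNRNPH2 window held 21 CpG dinucleotides, 3 CCAAT boxes, 2 E-boxes and 2 CRE half-sites, and the U2AF1L4 window 22 CpG dinucleotides and 1 CRE half-site. RefSeq gave a promoter for 60 of the 66 genes. Taking the first listed start of each gene, the median window held 27.5 CpG dinucleotides, against 22 over 15843 protein-coding genes. The ETS core was present in 20 of the 60 windows (33.3%) and in 14.2% of all. The CRE half-site was present in 12 (20.0%, all genes 9.67%), the CCAAT box in 26 (43.3%, all genes 36.4%) and the E-box in 7 (11.7%, all genes 8.88%). The GC box (60.0%, all genes 58.5%) and the TATA box (10.0%, all genes 9.63%) stood at nearly the same share in both. The comparison took all protein-coding genes, whether or not they were over the brightness limit. Shares among genes over the limit were not counted, so a higher share is not shown to be particular to splicing genes. A match of letters is a description and not a binding site.

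BMI1, the gene targeted by the hairpin, was dim on both arrays: its single row read 68.6 (empty vector) and 25.8 (shBMI-1), giving a log2 ratio of -1.41 (row SD 0.80), or -0.65 with a pseudocount of 50. Array medians were 131.2 and 129.8. A brightness limit was set there, and a gene counted as over it if either array reached its own median. A gene with a row on the array is called measured, whether over the limit or not. With the limit applied, the median log2 ratio of all 8921 remaining genes was 0.09. SOX10 (7608 and 6889), S100B (1123 and 1452) and S100A1 (4536 and 4352), markers of the melanocyte and neural crest lineage, were over the limit, whereas the pigment-cell markers MITF, TYR, TYRP1, MLANA and PMEL were under it. Of 9 measured markers of other cell types, the keratin genes KRT5 (414 and 543) and KRT14 (656 and 876) were over the limit. The 9 summed to 1350 (empty vector) and 1626 (shBMI-1), and their part in the results below was not tested. In such bulk RNA, fewer cells of a type and less RNA per cell cannot be told apart.

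Most splicing and hnRNP genes differed little between the cultures. Of the 66 genes, 60 passed the brightness limit, and 46 had a mean intensity of at least 1024. The 60 had a median log2 ratio of 0.02 (shBMI-1 over empty vector), against 0.09 for all genes over the limit, and the interquartile range was 0.32 against 0.48. A ratio within 0.25 of 0 was found for 43 of the 60 (71.7%), against 49.1% of all genes over the limit. Bright genes varied less on these arrays, and among genes of at least 1024 the shares were 37 of 46 (80.4%) and 66.2%. The interquartile ranges of these bright sets were closer, at 0.27 and 0.31. Their medians were 0.02 and 0.09, so part of the gap in shares comes from the window being centred on 0. Ratios above 0 were found for 35 of the 60 and below 0 for 25, while 60.0% of all genes were above 0.

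Only U2AF1L4 and HNRNPA0 were at least 2-fold higher with the hairpin, 2 of 60 (3.33%), where 3.23% of all genes over the limit were. HNRNPA0 passed the limit through the shBMI-1 array only, where it was higher, so the limit itself favoured its being counted. None of the 60 was at least 2-fold lower, where 3.55% of all genes were. With the limit required on both arrays, 1 of 59 was at least 2-fold higher (all genes 1.16%) and 0 of 59 lower (all genes 1.08%). At such a share, finding none among 59 genes says little. At 1.5-fold, 4 of 60 were higher (6.67%, all genes 10.1%) and 2 were lower (3.33%, all genes 8.45%). Of the 46 genes of at least 1024, 1 was at least 1.5-fold higher (SF3B6, 2.17%, all such genes 2.63%) and 1 lower (HNRNPH2, 2.17%, all such genes 1.52%). These shares lie near or below the background, so the counts do not set the splicing genes apart. The genes past 1.5-fold are described with their own families below.

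The only error available came from genes with several array rows: the SD of their log2 ratios, pooled over genes of similar brightness and named the row SD. Different rows can follow different transcripts, so the row SD is not pure error. Rows of one gene can also share sequence and are then not independent, so the row SD may be too small. All rows were read on the same 2 arrays, so it cannot show how far 2 cultures with the same virus would differ. A ratio beyond the row SD is thus no test of the hairpin. For mean intensities from 64 to 128 it was 0.76, 0.60 from 128 to 256, 0.42 from 256 to 512, 0.30 from 512 to 1024, 0.25 from 1024 to 2048, 0.23 from 2048 to 4096 and 0.20 above. Of the 60 genes, 6 lay more than 2 row SDs from 0 (10.0%, all genes 9.30%). These were U2AF1L4, PRPF40B, HNRNPH2, SNRPA, SF3B6 and HNRNPA3.

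**Figure D1:**
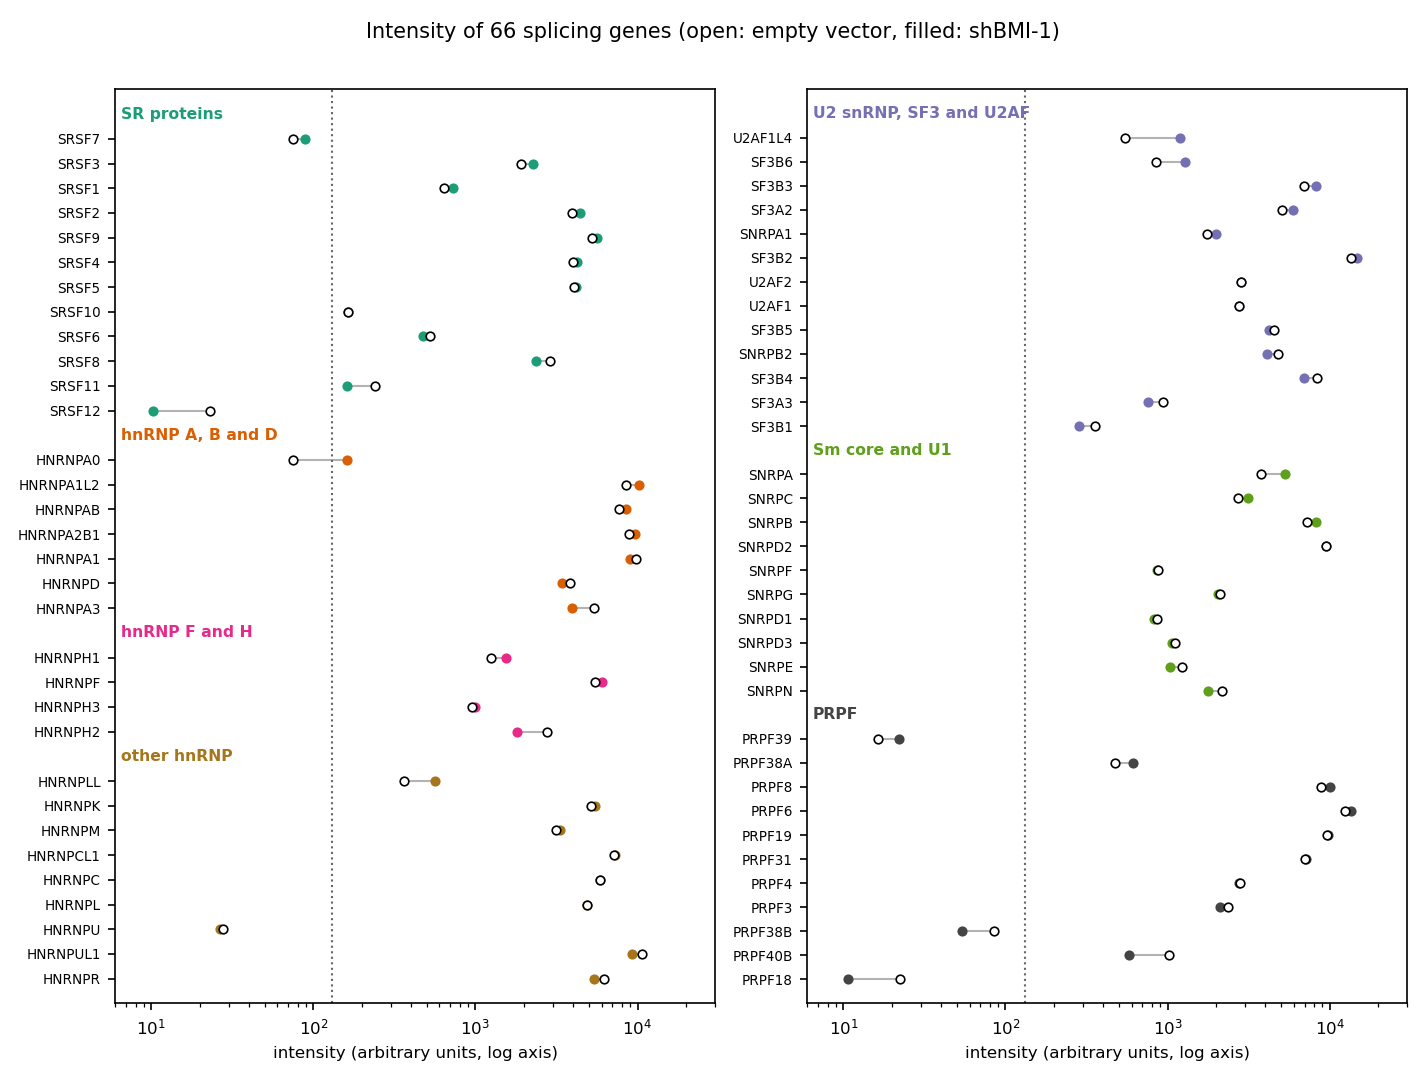
Intensity of each of the 66 genes (log axis, arbitrary units, mean of log2 over rows) in the empty-vector culture (open circles) and the shBMI-1 culture (filled circles, coloured by role), ordered by ratio within each role. The dotted line is the empty-vector array's median of 131.2. In most genes the circles nearly coincide, and the long bars belong to U2AF1L4, HNRNPA0, PRPF40B and the dim genes SRSF12 and PRPF18.

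SR proteins carry RNA recognition motifs and a tail rich in arginine and serine, and mostly promote the use of the exons they bind. None of the 10 SR genes over the limit reached 1.5-fold. Of all genes over the limit, 10.1% were at least 1.5-fold higher and 8.45% lower, and 10 genes are too few to be set apart from that. The median log2 ratio of the 10 SR genes was 0.06. SRSF3, a small SR protein that also couples splicing to mRNA export, read 1921 and 2268 (log2 ratio 0.24, row SD 0.23). SRSF1, the founding member and a known oncoprotein, read 638 and 726 (0.19, row SD 0.30). Both were slightly higher with the hairpin, by no more than about their row SD. SRSF9 read 5244 and 5644 (0.11), SRSF2 read 3952 and 4390 (0.15), and SRSF4 read 3994 and 4212 (0.08).

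SRSF11 had the lowest ratio of the SR genes over the limit, at 238 and 162 (log2 ratio -0.56, row SD 0.60). That was short of 1.5-fold as deposited and within its row SD. After loess normalization the SRSF11 ratio was -0.60, past 1.5-fold. SRSF8, a close relative of SRSF2, read 2881 and 2350 (-0.29, row SD 0.23), and SRSF6 read 523 and 473 (-0.14). The log2 ratios of SRSF8 and SRSF2 thus stood on opposite sides of 0. SRSF10, which represses splicing when dephosphorylated, had 1 row at 498 and 595 and another at 53.4 and 45.4. Those rows disagreed in sign (0.26 and -0.23), and their mean was 0.01. SRSF5 read 4186 and 4120 on 1 row and 3933 and 4241 on the other, near 0 on both (-0.02 and 0.11). SRSF12 (23.2 and 10.2, log2 ratio -1.18) and SRSF7 (75.4 and 89.1, 0.24) were under the limit on both arrays. No background signal was available, so such dim values are given without a reading of their direction.

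The hnRNP A, B and D proteins pair RNA recognition motifs with a glycine-rich tail, and often silence exons. HNRNPA0, an RNA-binding protein known as a target of stress kinases, read 74.9 for the empty vector and 161 for the hairpin. That is 2.15-fold higher with the hairpin (log2 ratio 1.10), but the row SD at this level was 0.76, and the gene passed the limit through the shBMI-1 array only. Of the 500 genes over the limit nearest to it in level, 27.2% had a ratio at least as far from 0. Its mean level was under both array medians, and a gene at such a level passes the limit only if its arrays differ. The limit itself thus raised this share, which is no measure of noise. With 50 added to every value the log2 ratio was 0.76, short of 2-fold.

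HNRNPA3 had the lowest ratio of these genes, at 5377 and 3952 (log2 ratio -0.44, row SD 0.20), and 6.8% of the 500 nearest genes were as far from 0. Its relatives were nearer to 0. HNRNPA1, the best-studied splicing silencer of the family, read 26709 and 25741 on 1 row and 3596 and 3158 on the other (-0.05 and -0.19). HNRNPA2B1 read 8915 and 9669 (0.12). HNRNPAB had rows at 12677 and 13992 and at 4710 and 5105 (0.14 and 0.12). HNRNPD, known as AUF1 for its binding to AU-rich elements, had rows at 4848 and 4421 and at 3057 and 2643 (-0.13 and -0.21). HNRNPA1L2 read 8552 and 10226 (0.26); it is a near-identical copy of HNRNPA1, so neither signal is certain to come from its own gene alone. The median of the 7 genes was 0.12.

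The hnRNP F and H proteins bind runs of guanines through related recognition motifs. HNRNPH2 read 2758 for the empty vector and 1799 for the hairpin, 1.53-fold lower with the hairpin (log2 ratio -0.62, row SD 0.23). Only 2.6% of the 500 nearest genes were as far from 0. Its close paralog HNRNPH1 had a ratio on the other side of 0, at 1250 and 1553 (0.31, row SD 0.25). HNRNPF read 5472 and 6058 (0.15) and HNRNPH3 read 947 and 993 (0.07). As deposited, HNRNPH2 was thus the 1 gene below 0 of the 4, whose median was 0.11, and HNRNPH3 was also below 0 (-0.02 at the lowest) after quantile and loess normalization. RefSeq lists a readthrough gene, RPL36A-HNRNPH2, over the HNRNPH2 locus, and the row could also report its transcripts.

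Among the remaining hnRNPs, HNRNPLL, which controls exon choice in the leukocyte antigen CD45, read 364 and 562, 1.54-fold higher with the hairpin (log2 ratio 0.63, row SD 0.42). Of the 500 nearest genes, 13.6% were as far from 0. Its paralog HNRNPL read 4854 and 4871 (0.01). HNRNPC, which binds uridine tracts and guards against the use of cryptic exons, had rows at 12181 and 13078 and at 2841 and 2669, on either side of 0 (0.10 and -0.09). Its retrocopy HNRNPCL1, whose row may also read HNRNPC, read 7150 and 7247 (0.02). HNRNPK, which binds poly(C), read 5154 and 5483 (0.09), and HNRNPM read 3162 and 3329 (0.07). The ratios of HNRNPC, HNRNPCL1 and HNRNPL were below 0 after quantile and loess normalization, so they have no settled side.

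HNRNPR and HNRNPUL1 were the lowest of the group. HNRNPR read 6217 and 5413 (log2 ratio -0.20, row SD 0.20), and the HNRNPUL1 rows, at 10400 and 9008 and at 10875 and 9624, gave -0.21 and -0.18. HNRNPU, the scaffold attachment factor, was under the limit on its single row (27.9 and 26.5). Whether that row detects the transcript well was not tested. The median of the 8 genes over the limit was 0.01.

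**Figure D2:**
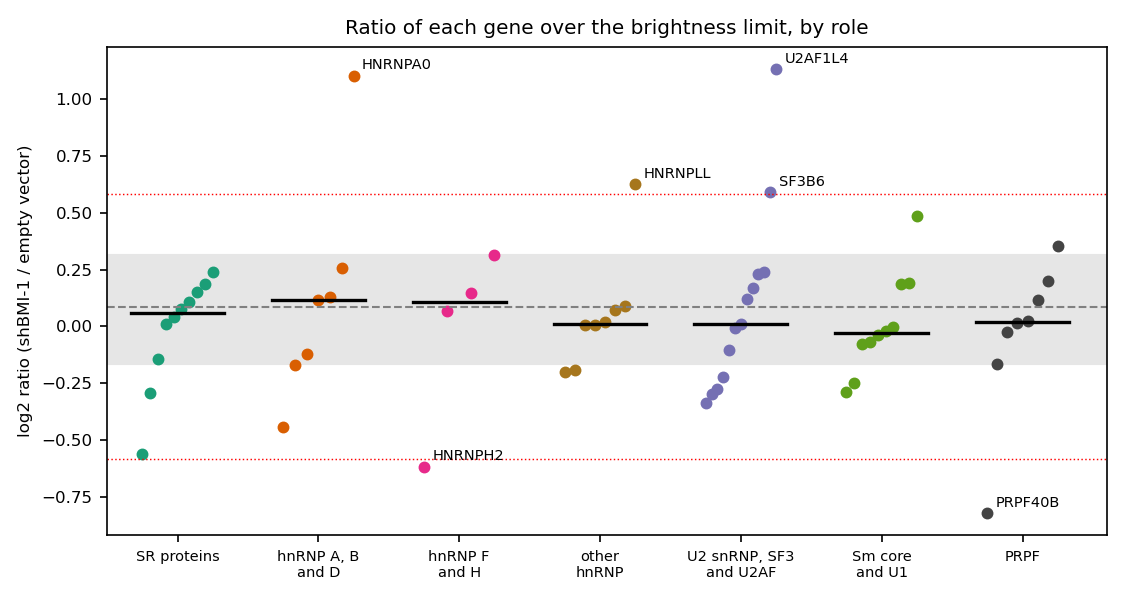
Log2 ratio (shBMI-1 over empty vector) of the 60 genes over the brightness limit, in 7 role groups; each point is a gene, black bars are group medians, the dashed line and grey band are the median (0.09) and quartiles of all 8921 genes over the limit, and red dotted lines mark 1.5-fold. The 7 group medians lie between -0.03 and 0.12, and 6 genes lie outside the dotted lines.

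At the 3′ end of the intron, U2AF1 and U2AF2 encode the small and large subunits of the dimer that binds the AG dinucleotide and the polypyrimidine tract. Both had mean ratios near 0. The U2AF1 rows read 1889 and 2026, 2873 and 2722, and 3864 and 3758 (log2 ratios 0.10, -0.08 and -0.04). The U2AF2 rows disagreed in sign, at 5034 and 4417 (-0.19) and at 1594 and 1847 (0.21).

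U2AF1L4, a paralog of the small subunit that can take its place in the dimer, differed most of all 60 genes. It read 544 for the empty vector and 1192 for the hairpin, 2.19-fold higher with the hairpin (log2 ratio 1.13, row SD 0.30). Of the 500 nearest genes, 1.4% were as far from 0. The ratio stayed past 2-fold under every scaling and with a pseudocount of 50, between 1.05 and 1.15. It rests on 1 row on each of 2 arrays.

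The U2 snRNP and its SF3 subunits gave ratios on both sides of 0. SF3B6, a small subunit that contacts the branch point adenosine, read 851 and 1282, 1.51-fold higher with the hairpin (log2 ratio 0.59, row SD 0.25), and 8.6% of the 500 nearest genes were as far from 0. After loess normalization its ratio was 0.51, short of 1.5-fold. SF3B1, the scaffold of the complex and a gene mutated in uveal melanoma, was lower on both of its rows, at 603 and 467 and at 211 and 172 (-0.37 and -0.30, row SD 0.42). SF3A3 read 934 and 761 (-0.30, row SD 0.30) and SF3B4 read 8392 and 6936 (-0.27, row SD 0.20). SF3B3 read 6956 and 8216 (0.24), SF3A2 read 5090 and 5966 (0.23), SF3B2 read 13482 and 14678 (0.12) and SF3B5 read 4516 and 4207 (-0.10). Of the 8 SF3 genes, 4 were above 0 and 4 below, where 60.0% of all genes over the limit were above 0. Among them SF3B6 alone lay more than 2 row SDs from 0. The U2 proteins encoded by SNRPA1 and SNRPB2, which bind each other, had ratios on opposite sides of 0, at 1757 and 1977 (0.17) and at 4771 and 4087 (-0.22).

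Of the U1 proteins, SNRPA had the highest ratio, at 3764 and 5268 (log2 ratio 0.49, row SD 0.20), 1.40-fold higher with the hairpin, and 5.8% of the 500 nearest genes were as far from 0. SNRPC, which stabilises pairing of U1 with the 5′ splice site, read 2723 and 3113 (0.19, row SD 0.23). Both U1 genes chosen by symbol were thus above 0, SNRPC within its row SD. Another U1 gene, SNRNP70, fell outside the symbol rule and read 817 and 921 (0.17, row SD 0.30).

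The Sm core genes lay close to or below 0. Of 8 genes, SNRPB alone was above 0 as deposited, at 7093 and 8208 on 1 row and 7485 and 8371 on the other (0.21 and 0.16, row SD 0.20). SNRPN encodes a near-identical paralog of the SNRPB protein, from an imprinted locus known for Prader-Willi syndrome. Its 4 rows read 1915 and 1607, 2882 and 2376, 1829 and 1485, and 2182 and 1755, and all were lower with the hairpin (-0.25 to -0.31, row SD 0.25). The rows are alternative transcripts that share the coding sequence, so they are not independent. SNRPE read 1228 and 1035 (-0.25). SNRPD1, SNRPD3, SNRPF and SNRPG had log2 ratios of -0.07, -0.08, -0.02 and -0.04. The 2 SNRPD2 rows, at 12071 and 12923 and at 7414 and 6889, stood on either side of 0 (0.10 and -0.11). Since all genes over the limit had a median of 0.09, 7 of the 8 core genes lay below that median, and their own median was -0.05.

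The PRPF genes encode factors of several assembly steps, and those of the tri-snRNP are known for mutations in retinitis pigmentosa. PRPF8, which cradles the catalytic centre, read 8783 and 10076 (log2 ratio 0.20, row SD 0.20). PRPF6 read 12452 and 13509 (0.12), PRPF31 read 7023 and 7098 (0.02), PRPF4 read 2815 and 2765 (-0.03) and PRPF3 read 2367 and 2108 (-0.17). The tri-snRNP genes were thus within or at their row SDs. PRPF19, a ubiquitin ligase needed for activation, read 9645 and 9803 (0.02), and PRPF38A, a factor of the precatalytic complex, read 477 and 611 (0.36, row SD 0.30). The median of the 8 PRPF genes over the limit was 0.02.

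PRPF40B, a relative of a yeast U1 protein that bridges the ends of the intron, had the lowest ratio of all 60 genes. One row read 1458 (empty vector) and 592 (shBMI-1), a log2 ratio of -1.30, and the other read 717 and 566, a ratio of -0.34. The mean of the rows was -0.82 (1.77-fold lower with the hairpin, row SD 0.30), and 3.6% of the 500 nearest genes were as far from 0. Both rows were lower with the hairpin, but they differed from each other by 0.96, the widest gap among the 14 genes with several rows, and 1 row alone reached 2-fold. In RefSeq the gene overlaps FAM186B (164 and 120, log2 ratio -0.45) and FMNL3 (21.5 and 59.1, 1.46). Per the labels' protocols the label was put on double-stranded cDNA, so strands cannot be told apart. PRPF18 (22.2 and 10.7), PRPF38B (85.3 and 53.6) and PRPF39 (16.3 and 21.9) were under the limit on both arrays, with log2 ratios of -1.06, -0.67 and 0.43.

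**Figure D3:**
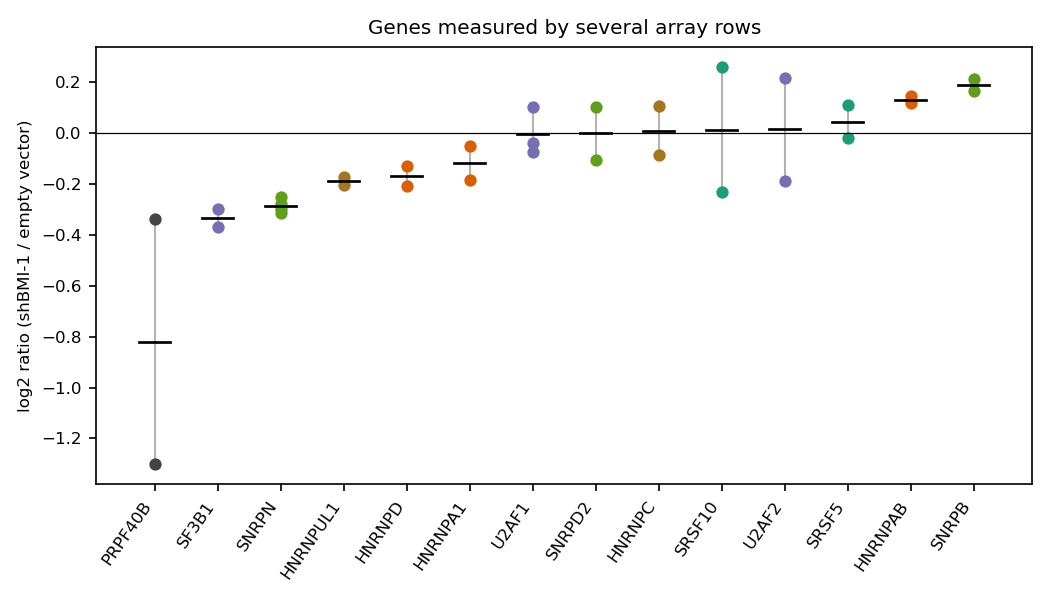
Log2 ratio (shBMI-1 over empty vector) of each of the 31 rows of the 14 genes measured by several rows, ordered by mean; points are rows, coloured by role, and black bars are means. Rows of 11 genes lie within 0.25 of each other, and the rows of PRPF40B lie 0.96 apart.

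Rows of one gene mostly gave close ratios. Of the 66 genes, 14 had several rows, 31 in all, with a median gap of 0.13 between the highest and the lowest row. All rows were on the same side of 0 in 8 genes and on both sides in 6. Those 6 (HNRNPC, SNRPD2, SRSF5, SRSF10, U2AF1 and U2AF2) had means between -0.01 and 0.04. The same counts were not made over all genes with several rows, so they show nothing particular to these 14. The other 52 genes had a single row, among them U2AF1L4, HNRNPA0, HNRNPLL, SF3B6 and HNRNPH2.

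**Figure D4:**
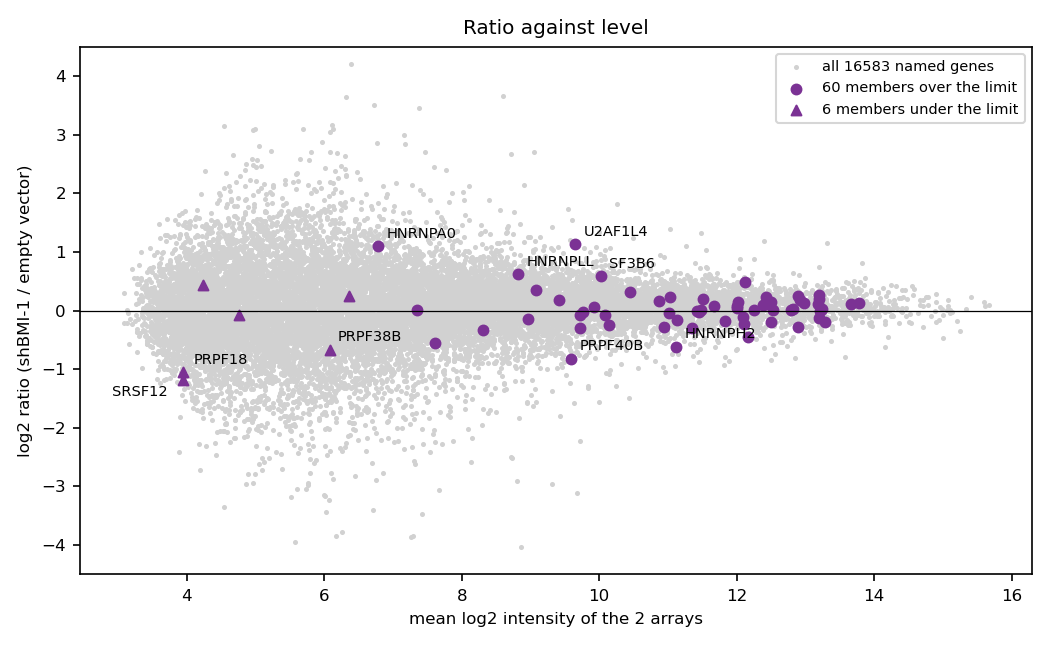
Log2 ratio (shBMI-1 over empty vector) against mean log2 intensity for 16583 named genes (grey), with the 60 splicing and hnRNP genes over the brightness limit as circles and the 6 under it as triangles. The grey cloud is wide at low intensity and narrow at high intensity, where most of the splicing genes lie.

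Other splicing genes had a similar spread, with an interquartile range of 0.34. A list of 120 such genes, none of them among the 66, had 112 measured and 85 over the limit. Their median log2 ratio was 0.06; 2 were at least 2-fold higher (2.35%, all genes 3.23%) and none was at least 2-fold lower (all genes 3.55%). At 1.5-fold, 4 were higher (4.71%, all genes 10.1%) and 2 lower (2.35%, all genes 8.45%). Both genes past 2-fold were regulators. KHDRBS3, an RNA-binding protein of the STAR family, read 145 and 358 (1.31, row SD 0.60), and TIA1, which promotes the use of weak 5′ splice sites, read 64.0 and 158 (1.31, row SD 0.76). TIA1 passed the limit through the shBMI-1 array only.

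Past 1.5-fold stood a gene of the tri-snRNP and 1 of the intron-binding complex. XAB2 read 3111 and 5740 (log2 ratio 0.88, row SD 0.20), and TXNL4A, a small U5 protein, read 384 and 616 (0.68, row SD 0.42). On the lower side, LUC7L, a U1-associated factor, read 272 and 164 over 2 rows (-0.73, row SD 0.60), and SAP18, of a complex at exon junctions, read 641 and 404 (-0.67, row SD 0.42). Of the 26 snRNP, LSM and U2-associated genes over the limit, 21 were above 0, where 60.0% of all genes were. Of these 26 genes, 15 were above the median of all genes. Their own median was 0.14. Highest after TXNL4A were the helicase gene DDX23 (0.42) and SNRNP27 (0.42), and lowest after LUC7L were DDX39B (-0.39) and LUC7L2 (-0.33). The 22 genes of the catalytic steps had a median of 0.04, with SRRM1 (0.39) and SLU7 (0.35) next to XAB2 at the top and CDC5L (-0.46), ISY1 (-0.37) and BCAS2 (-0.36) at the bottom. The 25 regulators had a median of 0.05, with NONO (0.56) next to the highest and MBNL3 (140 and 95.6, -0.55), NOVA2 (163 and 117, -0.47) and ELAVL1 (-0.38) lowest. MBNL3 and NOVA2 passed the limit through the empty-vector array only. The 12 exon junction and surveillance genes had a median of 0.00, with EIF4A3 (0.40), SMG6 (0.27) and RBM8A (0.25) at the top, and MAGOH (-0.53) and CASC3 (-0.10) lowest after SAP18.

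**Figure D5:**
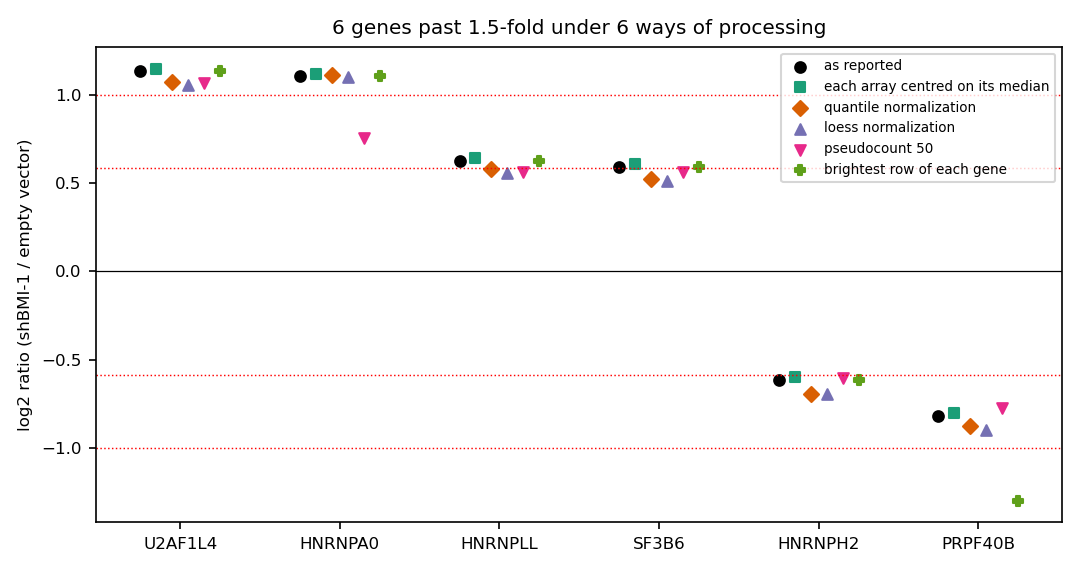
Log2 ratio (shBMI-1 over empty vector) of the 6 genes past 1.5-fold under 6 ways of processing the values; red dotted lines mark 1.5-fold and 2-fold. All markers of a gene lie on one side of 0. U2AF1L4 stays above 1.05, HNRNPA0 is at 0.76 with a pseudocount of 50, and PRPF40B is at -1.30 in its brighter row.

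The choice of processing moved the genes past 1.5-fold only in part. HNRNPH2 stayed past 1.5-fold under all 5 alternatives, between -0.60 and -0.70. PRPF40B lay between -0.80 and -0.90 under the scalings, at -0.77 with a pseudocount of 50 and at -1.30 in its brighter row. Its other row, at -0.34, was short of 1.5-fold. HNRNPLL and SF3B6 were short of 1.5-fold under 3 of the 5 alternatives each, with lowest ratios of 0.56 and 0.51.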

How the data were processed

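The deposited table holds linear intensity values for 45033 rows, 1 column per array. Per the labels' protocols, double-stranded cDNA made with oligo-dT primers was labelled with Cy3 for NimbleGen one-color arrays. For scanning, for combining probes and for scaling between arrays, the authors' steps were not given in the sources used here. Detection calls were not used, and precision is limited by the number of arrays.

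Groups came from the sample titles. Symbols came from the platform's annotation table (none of the named rows had several symbols). Log2 values were taken with no pseudocount, and rows of a symbol were averaged. Folds are those of this log2 scale. The row SD pools rows of one gene within bands of mean intensity. Thresholds were 2-fold and 1.5-fold; with 1 array per group no p-value was computed. Genes under the brightness limit are given by value only.

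Members and gene lists were chosen with earlier results of these data known. Full values were to be given for members past 1.5-fold, for the 2 highest, the 2 lowest and the brightest of each role group, and for the ends of each further list; other members were added for their roles. The 9 alternatives were centring, quantile normalization, loess normalization (span 0.3, iterations 3), the brightest row, single rows, a pseudocount of 50, and 3 other brightness limits. The calculation was tested on simulated data with less noise than the row SD of any brightness band. That test checked the arithmetic only, and not how often unchanged genes pass a threshold in data like these. Python 3.11.15, numpy 2.4.6, pandas 2.3.3, statsmodels 0.14.6 and matplotlib 3.10.9 were used.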

Additional observations from a re-analysis of the deposited data

How the results depend on the processing

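The median log2 ratio of the splicing and hnRNP genes lay between -0.03 and 0.05 under the 9 alternatives. Medians near 0 have no settled side: the Sm and U1 median was below 0 throughout (-0.11 to -0.01), the hnRNP F and H median above 0 throughout (0.03 to 0.12), and those of the other 5 groups crossed 0. The median of all genes was 0.03 after quantile and 0.02 after loess normalization.

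The count of genes at least 1.5-fold higher, 4 as reported, was 2 after loess or quantile normalization, with a pseudocount of 50 or with a limit at the 75th percentile; the shares of all genes there were 8.64%, 9.06%, 7.03% and 4.78%. The count at least 2-fold higher, 2 as reported, was 1 with a pseudocount of 50, with the 75th percentile or with a limit on both arrays, since HNRNPA0 was then short of 2-fold or left out; of all genes, 1.59%, 1.04% and 1.16% were. The count at least 2-fold lower, 0 as reported, was 1 with the brightest row or with single rows (PRPF40B) and 2 with no limit (SRSF12 and PRPF18), where the shares of all genes were 3.76%, 3.62% and 5.53%. With no limit 5 of 66 genes, in place of 2 of 60, were at least 1.5-fold lower (all genes 13.3%), and after loess normalization 3 of 60 (all genes 9.64%), SRSF11 being added.

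Of the other splicing genes, the counts at least 1.5-fold and 2-fold higher (4 and 2) were 12 and 8 of 112 with no limit (all genes 14.1% and 5.32%), and 2 and 0 of 65 with the 75th percentile (all genes 4.78% and 1.04%). The 2-fold count was 1 with a limit on both arrays or a pseudocount of 50 (all genes 1.16% and 1.59%). The count at least 1.5-fold lower, 2 as reported, was 5 with no limit (all genes 13.3%) and 1 with the brightest row, the 75th percentile or a pseudocount of 50 (all genes 8.82%, 3.79% and 6.46%), and that at least 2-fold lower, 0 as reported, was 1 with no limit (all genes 5.53%). The limits change which genes are counted, and causes beyond that were not tested. No paired analysis was possible because each group had 1 array.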
